A study of Mus musculus with 18 samples.

Results

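The comparison described here asks what remained of the transcriptome response of lipopolysaccharide-stimulated macrophages when the cells had first been loaded with cholesterol and then exposed to reconstituted high-density lipoprotein (rHDL), set against stimulated cells that had received neither. It takes 6 of the 18 libraries of the series, 3 labelled loading, rHDL and LPS and 3 labelled LPS control. Counts were available for 24059 gene symbols, of which 8965 had enough reads to be tested. Macrophages were grown from the bone marrow of C57BL/6J mice in L929-conditioned medium, with 7 days of differentiation. On day 8 the rHDL groups received CSL111 for 20 h, a particle that holds 150 parts of soybean phosphatidylcholine for 1 part of APOA1, and were washed in PBS before lipopolysaccharide (LPS) was added. Loading was done before this step, with liposomes of POPC and cholesterol. The same count table held 3 libraries with rHDL but no loading and 3 with loading but no rHDL, and all 4 of its groups received LPS, so no group shows the cells without LPS. The LPS dose, its duration and the age and sex of the mice were not given in the sources used here. Because the labels do not say whether replicates came from separate animals or cultures, p-values measure only the spread between these libraries. RNA had an integrity number above 8 and was selected on poly-dT.

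Cholesterol in a macrophage is sensed by opposing systems. When sterol in the endoplasmic reticulum is low, SREBP2 is cleaved and switches on the enzymes of cholesterol synthesis, and when it is high, INSIG proteins hold SREBP2 back. Oxysterols made from excess cholesterol activate the liver X receptors (LXR), which raise the exporters ABCA1 and ABCG1 that hand cholesterol to APOA1 and HDL. LPS, the outer membrane glycolipid of Gram-negative bacteria, acts through Toll-like receptor 4 to induce cytokines, chemokines and interferon-stimulated genes.

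Promoters are shown first for genes that fell: those of cholesterol synthesis enzymes and those of a pair of inducible chaperones. Each is the stretch of 250 bases just before the annotated start, from RefSeq on GRCm38.p6, read 5′ to 3′ on the strand of the gene. In the first 4, capitals mark CCAAT, or its reverse complement where it lies on the other strand, the letters bound by the factor NF-Y. This pentamer, searched on both strands, occurred in 33.8% of all 32851 such windows and in 7 of the 7 windows found for enzymes that fell. Cyp51 encodes the lanosterol demethylase, Idi1 the isopentenyl diphosphate isomerase, Sc5d the sterol C5 desaturase and Nsdhl a sterol dehydrogenase.
Cyp51 (chr5:4104698-4104947, minus strand): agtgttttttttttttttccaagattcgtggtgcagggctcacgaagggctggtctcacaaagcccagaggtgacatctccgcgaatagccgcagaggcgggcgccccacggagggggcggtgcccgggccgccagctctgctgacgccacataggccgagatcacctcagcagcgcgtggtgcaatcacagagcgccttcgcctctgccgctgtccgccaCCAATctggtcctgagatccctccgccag
Idi1 (chr13:8885356-8885605, plus strand): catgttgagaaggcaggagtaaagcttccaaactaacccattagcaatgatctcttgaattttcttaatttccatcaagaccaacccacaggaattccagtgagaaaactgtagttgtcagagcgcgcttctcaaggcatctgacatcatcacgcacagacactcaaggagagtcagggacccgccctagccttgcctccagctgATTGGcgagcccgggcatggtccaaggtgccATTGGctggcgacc
Sc5d (chr9:42264301-42264550, minus strand): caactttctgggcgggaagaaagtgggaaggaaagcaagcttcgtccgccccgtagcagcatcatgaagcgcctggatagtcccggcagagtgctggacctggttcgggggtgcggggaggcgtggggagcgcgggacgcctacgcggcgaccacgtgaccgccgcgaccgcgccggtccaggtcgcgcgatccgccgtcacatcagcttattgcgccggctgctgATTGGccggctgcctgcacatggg
Nsdhl (chrX:72918271-72918520, plus strand): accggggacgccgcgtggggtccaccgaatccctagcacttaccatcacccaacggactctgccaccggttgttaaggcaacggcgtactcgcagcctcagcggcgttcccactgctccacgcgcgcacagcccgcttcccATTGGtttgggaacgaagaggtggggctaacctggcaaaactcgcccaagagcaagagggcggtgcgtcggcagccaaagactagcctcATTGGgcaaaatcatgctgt
In the last 2, capitals mark GAANNTTC, a palindrome that forms the core of the heat shock element and was found in 6.69% of all windows. Hspa1a and Hspa1b encode near-identical copies of the inducible chaperone HSP70, and their windows were identical at 247 of 250 positions. Reads from these copies are hard to assign to either, so values given for each of them are uncertain as to which copy they come from.
Hspa1a (chr17:34972157-34972406, minus strand): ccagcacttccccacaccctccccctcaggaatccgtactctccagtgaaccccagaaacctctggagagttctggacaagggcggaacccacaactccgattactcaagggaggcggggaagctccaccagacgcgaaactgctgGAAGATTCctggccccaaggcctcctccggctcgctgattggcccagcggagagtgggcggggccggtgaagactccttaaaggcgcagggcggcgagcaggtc
Hspa1b (chr17:34959239-34959488, minus strand): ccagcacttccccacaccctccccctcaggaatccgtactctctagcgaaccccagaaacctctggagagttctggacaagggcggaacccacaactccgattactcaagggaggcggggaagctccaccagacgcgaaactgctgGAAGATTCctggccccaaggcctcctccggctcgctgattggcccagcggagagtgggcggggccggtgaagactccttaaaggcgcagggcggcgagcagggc
Of the 13 genes of the heat shock list, 9 had windows in the RefSeq table, 14 in all. GAANNTTC was in 6 of these 14 windows (42.9%), beside 6.69% of all windows. By gene it was found for 6 of the 9, beside 2088 of all 27025 genes with a window. The SREBP core searched as TCACNCCAC on both strands was in 1.05% of all windows and in 0 of the 7. A match describes the letters in these windows and nothing more.

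Total counts ran from 9528888 to 11106817 in the 3 LPS libraries and from 10065054 to 12285431 in the 3 libraries with loading plus rHDL. Values are given as CPM, the counts of a gene relative to the scaled library total. Macrophage markers were abundant in all 6 libraries, with a summed level of 19108 to 21206 CPM with LPS alone and 16440 to 20348 CPM with loading plus rHDL. Itgam, which shares nearly all of its exon bases with another annotated transcript, was at 0 in this count. In bulk RNA, fewer cells of a type and less RNA per cell cannot be told apart.

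With loading plus rHDL, 127 genes were higher and 171 were lower than with LPS alone, out of 8965 tested with edgeR's quasi-likelihood test at a Benjamini-Hochberg adjusted p under 0.05. That is 3.32% of the genes tested, 1.42% higher and 1.91% lower. The groups did not overlap in any of these 298 genes, nor in many that were not called: in all, 1679 genes, or 18.7% of those tested, had no overlap. An unadjusted p under 0.05 was reached by 1463 genes, or 16.3%. Among the 298 called genes, 16 were at least 2-fold higher and 41 at least 2-fold lower. The median log2 fold change over all genes was 0.01. For 6027 genes, or 67.2%, the 95% interval lay within 1.5-fold either way, and for the others a larger difference lay inside the interval. Libraries are named by group and replicate number. The counts depended on single libraries of the LPS group: without LPS 1 they were 79 and 110, without LPS 2 they were 78 and 119, and without LPS 3 they were 60 and 94. Leaving out 1 library with loading plus rHDL gave 105 to 113 higher and 140 to 182 lower.

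**Figure D1:**
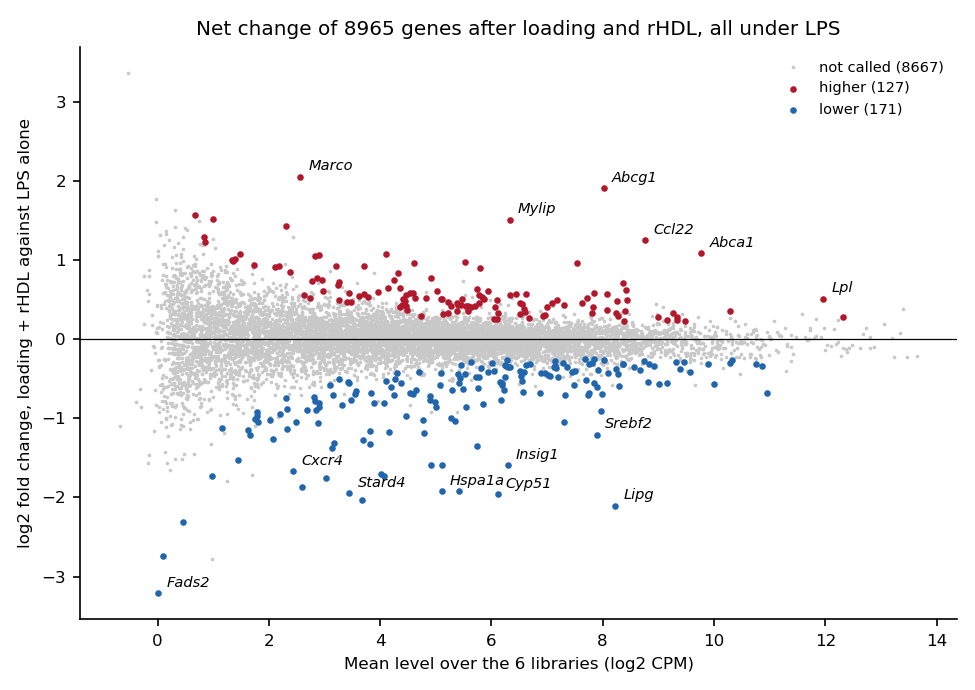
Log2 fold change between loading plus rHDL and LPS alone (vertical axis) against mean log2 CPM over the 6 libraries (horizontal axis), with 1 point per gene tested and called genes in colour. The 127 called rises and 171 called falls sit around a median of 0.01.

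The plot of all genes puts sterol genes at both edges. Abcg1 and Mylip lie highest among abundant called genes, predicted genes and clones aside, and Cyp51 and Stard4 are close to the lowest. Loading alone and rHDL alone were tested in the same fit against the same LPS libraries. Their values are therefore set beside the net change without any measure of likeness. Loading alone gave 358 higher and 410 lower genes (8.57% called), and rHDL alone gave 1621 higher and 1654 lower (36.5% called). Against loading alone, loading plus rHDL differed in 38 higher and 53 lower genes (1.02% called). Against rHDL alone it differed in 1659 higher and 1537 lower (35.6% called).

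Genes of cholesterol synthesis were lower with loading plus rHDL. Of 19 tested members of the list of 21, 11 fell, 0 rose and 8 did not pass the test, and all 19 had a negative log2 fold change, with a median of -1.05 against 0.01 over all genes. Their summed level was 693 to 854 CPM with LPS alone and 314 to 358 CPM with loading plus rHDL, so the groups did not overlap.

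Of the steps before squalene, Idi1 went from 12.1, 15.6 and 14.1 CPM to 3.54, 5.15 and 3.83 CPM (log2 -1.75 ± 0.18, adjusted p = 3.98e-05). Fdft1, the squalene synthase, went from 24.2, 35.0 and 29.8 CPM to 8.21, 10.4 and 8.26 CPM (log2 -1.73 ± 0.14, adjusted p = 7.88e-06). In both genes the highest treated library was under the lowest LPS library. Of the steps from squalene on, Sqle, the squalene epoxidase, fell from 41.2, 62.3 and 51.7 CPM to 17.5, 19.1 and 15.2 CPM (log2 -1.59 ± 0.14, adjusted p = 8.96e-06). Cyp51, the lanosterol demethylase (chromosome 5, 4080674 to 4104697, mm10), fell from 116, 150.4 and 140.2 CPM to 34.5, 38.2 and 31.9 CPM, a 3.89-fold difference (log2 -1.96 ± 0.10, adjusted p = 4.33e-08). Again no library of one group reached the range of the other. Sc5d (log2 -1.92 ± 0.12), Msmo1 (-1.35 ± 0.13), Lss, the lanosterol synthase (-1.37 ± 0.21), Hsd17b7 (-1.32 ± 0.15) and Nsdhl (-0.68 ± 0.09) also fell. The smallest change among the 11 was that of Nsdhl, from 17.7, 17.0 and 17.7 CPM to 11.4, 10.1 and 11.2 CPM.

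By the list median the enzymes lay between LPS alone and loading alone. With loading alone 11 of the 19 also fell, with a median of -1.24, and with rHDL alone 17 rose, with a median of 1.34. Loading plus rHDL was higher than loading alone in 8 of the 19. For Cyp51 the log2 fold change was -3.20 ± 0.11 with loading alone, and the level with loading plus rHDL was higher than that by 1.24 ± 0.12 (adjusted p = 0.000103). Idi1 was 1.62 ± 0.26 above loading alone (adjusted p = 0.00702) and Sc5d 1.01 ± 0.14 (adjusted p = 0.00207). These 3 calls held whichever of the 6 libraries was left out. The calls of Sqle, Fdft1, Msmo1 and Hsd17b7 against loading alone did not: for Hsd17b7 it was lost without loading 3 (adjusted p = 0.0657), for Msmo1 without loading 2 or loading 3 (adjusted p = 0.0532 to 0.0581), for Fdft1 without loading 1, loading 2 or loading plus rHDL 2 (adjusted p = 0.0557 to 0.0871) and for Sqle without loading 1, loading 2, loading 3 or loading plus rHDL 2 (adjusted p = 0.0619 to 0.0932). Nsdhl was at 0.19 ± 0.09 against loading alone and Lss at -0.26 ± 0.23, and neither passed the test. Against rHDL alone 18 of the 19 were lower.

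Genes that control SREBP2 or move sterol fell as well. Of 4 tested members of the list of 10, 3 fell and 0 rose. Insig1, which retains the SREBP2 complex in the endoplasmic reticulum, went from 124, 141 and 140.0 CPM to 44.9, 44.2 and 45.2 CPM (log2 -1.59 ± 0.07, adjusted p = 8.57e-09). Srebf2, the gene of SREBP2 itself, went from 333, 388 and 361 CPM to 135, 170.0 and 165 CPM (log2 -1.20 ± 0.09, adjusted p = 1.65e-06). Stard4, a soluble sterol carrier, went from 15.5, 25.6 and 20.2 CPM to 4.32, 6.32 and 5.45 CPM (log2 -1.94 ± 0.18, adjusted p = 2.58e-05). The groups were apart in all 3 genes. Mbtps2, a protease that cleaves SREBP, was at -0.05 ± 0.07 (adjusted p = 0.773). Against loading alone Insig1 was at -0.11 ± 0.07, Srebf2 at 0.18 ± 0.09 and Stard4 at 0.80 ± 0.24, with adjusted p of 0.596, 0.449 and 0.154, so these 3 did not pass that test.

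The exporter genes and some other LXR targets were above LPS alone. Of 14 tested members of the list of 18, 5 rose, 1 fell and 8 did not pass the test, with a median of 0.37. Abcg1 (chromosome 17, 31057694 to 31117981), the exporter to HDL, went from 139, 128 and 133 CPM to 481, 467 and 554 CPM, a 3.75-fold rise (log2 1.91 ± 0.07, adjusted p = 2.43e-09). Abca1 (chromosome 4, 53030789 to 53159895), the exporter to lipid-poor APOA1, went from 591, 654 and 563 CPM to 1014, 1435 and 1398 CPM, a 2.13-fold rise (log2 1.09 ± 0.11, adjusted p = 6.06e-05). Every treated library was above every LPS library for both, and for Abca1 the first treated library was the lowest of its group. Mylip, a ubiquitin ligase and LXR target, rose from 48.5, 46.0 and 47.4 CPM to 134, 122 and 149 CPM (log2 1.51 ± 0.08, adjusted p = 4.33e-08). Lpl, lipoprotein lipase, rose by 0.51 ± 0.07 (adjusted p = 0.000497), and Pltp, the phospholipid transfer protein, by 0.36 ± 0.06 (adjusted p = 0.00436), with 72.6% of its exon bases free of other transcripts. Arl4c, a small GTPase linked to cholesterol secretion, was the 1 member that fell, from 24.7, 23.4 and 25.2 CPM to 16.8, 17.6 and 15.7 CPM (log2 -0.55 ± 0.09, adjusted p = 0.00373).

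Beside this, loading alone raised 8 of the 14 and lowered 0, and rHDL alone raised 0 and lowered 11. Against loading alone, 4 of the 14 were lower with loading plus rHDL and 0 were higher. Abcg1 was at 2.58 ± 0.08 with loading alone and at -2.62 ± 0.08 with rHDL alone, and was -0.68 ± 0.07 on the log2 scale against loading alone (adjusted p = 0.000261). Arl4c was at 0.37 ± 0.09 with loading alone, so it rose there and fell with loading plus rHDL, a difference of -0.92 ± 0.09 (adjusted p = 0.000175). These differences of Abcg1 and Arl4c held whichever library was left out. That of Mylip, -0.38 ± 0.08 (adjusted p = 0.0251), was lost without loading 1, loading 2, loading 3 or loading plus rHDL 2 (adjusted p = 0.0793 to 0.121). Abca1 was at -0.44 ± 0.11 against loading alone and did not pass the test (adjusted p = 0.0944; 95% interval -0.68 to -0.20).

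**Figure D2:**
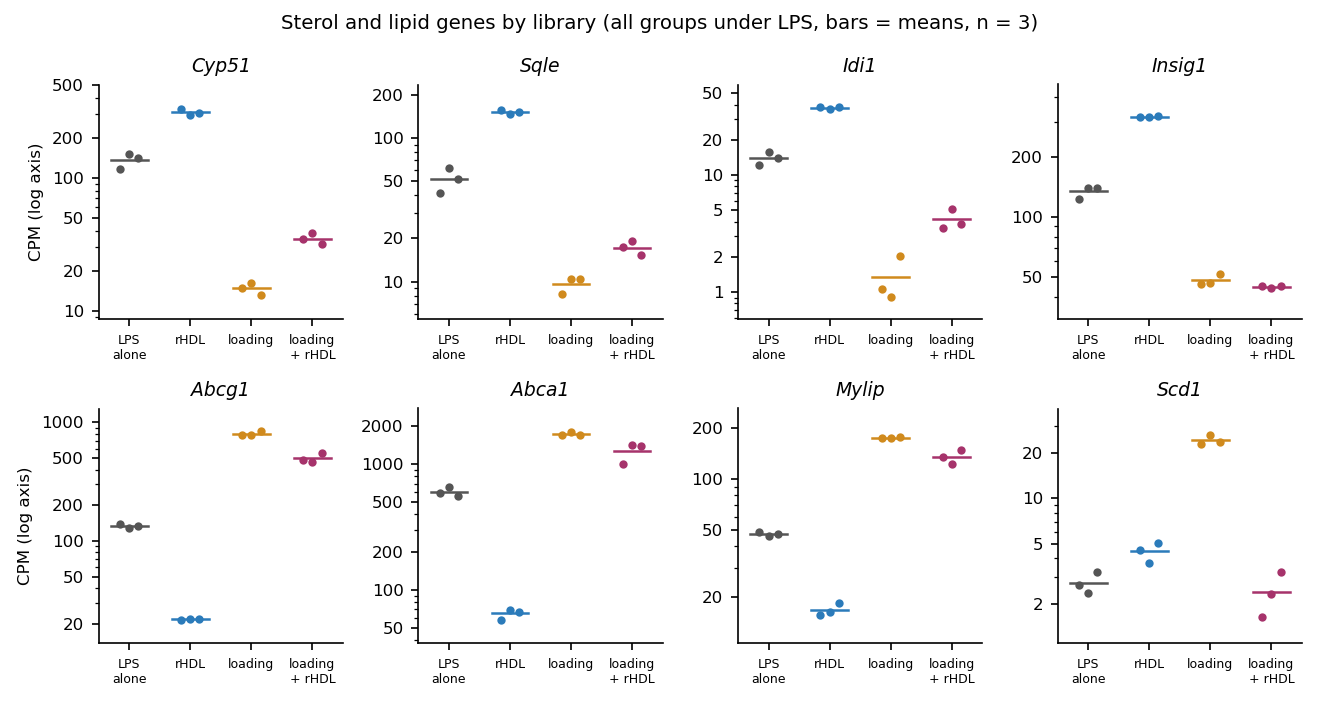
CPM per library on a log axis for 8 lipid genes in the 4 LPS-treated groups, with points for the 3 libraries and a bar for the group mean. For Cyp51, Sqle, Idi1 and Insig1 the loading plus rHDL libraries lie under LPS alone, for Abcg1, Abca1 and Mylip above it, and for Scd1 the groups overlap.

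The other LXR list member lower than loading alone was Lpcat3, a phosphatidylcholine-remodelling enzyme named after its values were seen, with a net value of -0.05 ± 0.08 and a difference from loading alone of -0.47 ± 0.08 (adjusted p = 0.00773). That call was lost without loading 3 (adjusted p = 0.0581). Scd1, which encodes the stearoyl-CoA desaturase and is shown in the plot of lipid genes, belongs to the fatty acid list. With loading plus rHDL it stood at 1.64, 2.33 and 3.24 CPM, and with LPS alone at 2.66, 2.36 and 3.27 CPM. The net difference was -0.19 ± 0.25 (adjusted p = 0.764, 95% interval -0.71 to 0.34), and the groups overlapped. Loading alone had 22.8, 26.2 and 23.6 CPM, a rise of 3.13 ± 0.18, and loading plus rHDL was -3.32 ± 0.18 against it (adjusted p = 2.61e-07). With loading plus rHDL, Scd1 thus overlapped the LPS libraries, while Abcg1 and Abca1 were above them.

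In fatty acid synthesis and desaturation, 3 of 9 tested members of a list of 14 fell and 0 rose, with a median of -0.45. Scd2, a second desaturase, went from 6.28, 15.8 and 10.7 CPM to 2.51, 4.47 and 2.21 CPM (log2 -1.87 ± 0.31, adjusted p = 0.00333). It had 12.1, 14.4 and 10.9 CPM with loading alone, and the difference from that group was -2.04 ± 0.30 (adjusted p = 0.00429), held whichever library was left out. The LPS libraries of Scd2 were spread widely, but the lowest of them was above the highest treated library. Fads2, a fatty acid desaturase of low level, went from 1.28, 0.636 and 1.74 CPM to 0.173, 0.0973 and 0.0852 CPM (log2 -3.21 ± 0.54, adjusted p = 0.00352). Fads1, its partner, was at -0.66 ± 0.16 (adjusted p = 0.0361), a call lost without LPS 1, LPS 2, LPS 3, loading plus rHDL 1 or loading plus rHDL 3 (adjusted p = 0.0538 to 0.12). Fasn, the fatty acid synthase, was at -0.92 ± 0.25 (adjusted p = 0.0627) and Acaca, acetyl-CoA carboxylase, at -0.45 ± 0.12 (adjusted p = 0.0561). Srebf1, which drives this programme, was at -0.24 ± 0.07 (adjusted p = 0.0876). The main edgeR fit did not call Fasn, Acaca or Srebf1. With the replicate block all 3 were called lower (adjusted p = 1.84e-05, 0.00567 and 0.013). DESeq2 called Acaca (adjusted p = 0.0225) and Srebf1 (adjusted p = 0.039) lower.

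Among 15 tested genes of lipid uptake, droplets and oxysterols (a list of 21), 1 rose and 1 fell. Marco, a scavenger receptor, had a low level but rose 4.16-fold, from 2.45, 2.18 and 3.27 CPM to 11.8, 10.3 and 10.5 CPM (log2 2.06 ± 0.17, adjusted p = 7.88e-06). Ch25h, the cholesterol 25-hydroxylase, fell from 382, 319 and 333 CPM to 218, 146 and 186 CPM (log2 -0.91 ± 0.14, adjusted p = 0.0022). Neither gene overlapped between the groups. Marco was at 2.05 ± 0.17 with loading alone, and Ch25h at -0.67 ± 0.14 with loading alone and -1.73 ± 0.15 with rHDL alone. Plin2, the lipid droplet coat protein, was at 0.19 ± 0.08 (adjusted p = 0.271). Genes outside these lists that share lipid roles and were named after their values were seen include Pcyt2, an enzyme of phosphatidylethanolamine synthesis, which fell from 23.9, 29.4 and 24.7 CPM to 9.85, 13.4 and 11.5 CPM (log2 -1.17 ± 0.11, adjusted p = 3.3e-05). Dgat2, which makes triglyceride, rose by 0.72 ± 0.12 (adjusted p = 0.00378). Tmem97, a sterol-responsive membrane protein, was at -0.79 ± 0.18 (adjusted p = 0.0247), a call lost without LPS 2, LPS 3, loading plus rHDL 2 or loading plus rHDL 3 (adjusted p = 0.0657 to 0.128). Of 13 tested phospholipid synthesis genes 0 were called by edgeR or DESeq2, and 0 had an unadjusted p under 0.05.

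**Figure D3:**
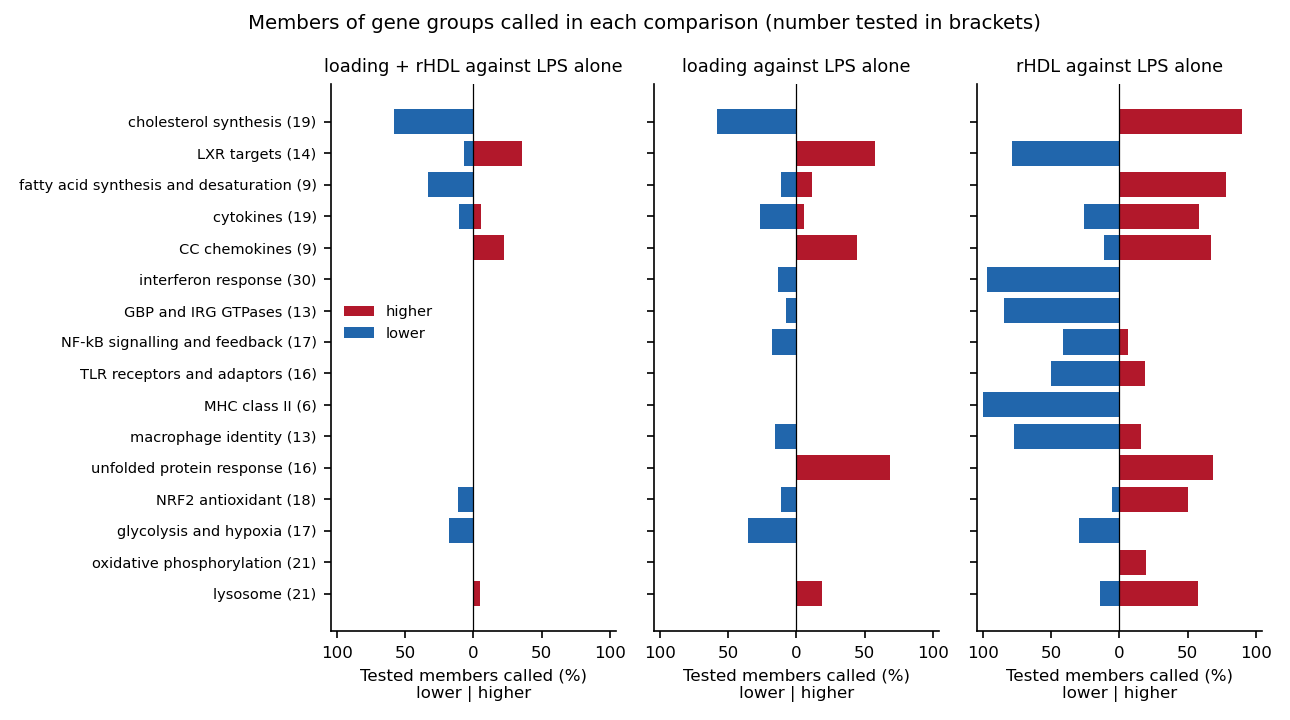
Share of the tested members of 16 gene lists (rows, number tested in brackets) called higher (bars to the right, in percent) or lower (bars to the left) against LPS alone, for loading plus rHDL, loading alone and rHDL alone, which share the 3 LPS libraries. For loading plus rHDL the longest bar is that of cholesterol synthesis, with 11 of 19 lower, and the interferon response and MHC class II rows are empty there while 29 of 30 and 6 of 6 are lower with rHDL alone.

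The plot of called members covers 16 of 41 lists. Over all 41 lists together, 492 genes were tested, of which 17 rose and 41 fell, or 11.8% against 3.32% of all genes. Without the members of the cholesterol synthesis, SREBP2 and LXR lists, 455 were tested, of which 12 rose and 26 fell (8.35%). The lists were chosen with earlier results of these data known, so a share above that of all genes is no test of them. In 19 of the 41 lists edgeR called 0 genes. Those 19 hold 225 tested genes, of which 23 were higher and 12 lower at an unadjusted p under 0.05 (15.6%, against 16.3% of all genes), and of which DESeq2 called 2 higher and 2 lower. With the replicate block, 15 of the 225 were called higher and 14 lower, beside 330 and 463 of all 8965 genes. Among the 16 lists of the plot, rHDL alone gave called members in every one.

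Inflammatory cytokines moved in both directions. Of 19 tested cytokine genes of 22, 1 rose and 2 fell by edgeR (15.8% called), and DESeq2 called 1 higher and 4 lower. At an unadjusted p under 0.05, 3 were higher and 5 lower (42.1%), and the median was -0.03. Il12b, the p40 subunit shared by IL-12 and IL-23, rose from 171, 183 and 175 CPM to 267, 218 and 277 CPM (log2 0.53 ± 0.09, adjusted p = 0.00334). Il10, the anti-inflammatory cytokine, fell from 246, 278 and 295 CPM to 184, 173 and 152 CPM (log2 -0.68 ± 0.12, adjusted p = 0.00622). The groups of both were apart, with the second treated library of Il12b the nearest to the LPS range. With loading alone, which was set against the same LPS libraries, Il12b was at 0.86 ± 0.09 and Il10 at -1.13 ± 0.13. The third call was Gdf15, a stress cytokine, at -0.47 ± 0.12 (adjusted p = 0.039), lost without LPS 2, LPS 3, loading plus rHDL 1 or loading plus rHDL 3 (adjusted p = 0.0841 to 0.172). With rHDL alone Gdf15 rose by 3.10 ± 0.12.

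Il6 was 661, 444 and 506 CPM with LPS alone and 680.2, 377 and 524 CPM with loading plus rHDL, a log2 difference of -0.03 ± 0.19 with a 95% interval of -0.43 to 0.38. Il1b was 6294, 6835 and 6213 CPM and 7423, 6655 and 6220.1 CPM, a difference of 0.07 ± 0.08 with an interval of -0.09 to 0.23. The libraries of the groups were mixed for both genes. The interval of Il6 is wide, so a difference inside it was not detectable with these libraries. Il23a, at low level, was at -0.98 ± 0.34 and was not called by edgeR (adjusted p = 0.149), but it was called lower by DESeq2 (adjusted p = 0.0251), in the 6 libraries alone (0.0289), with the filter on low counts left out (0.009) and with the replicate block (0.0159). Csf2 was at -0.29 ± 0.52 (0.835) and Ifnb1, interferon beta, at 0.47 ± 0.37 (0.591). Tnf was counted over only 2.9% of its exon bases and had 2.98, 3.54 and 3.16 CPM and 2.85, 3.40 and 5.88 CPM. Named after its values were seen, Inhba, a subunit of activin A, fell from 30.7, 32.2 and 26.8 CPM to 18.0, 20.9 and 16.9 CPM (log2 -0.69 ± 0.12, adjusted p = 0.00465), and it rose with rHDL alone by 1.16 ± 0.11. Il19 of the IL-10 family was at -0.82 ± 0.20 (adjusted p = 0.039), a call lost without LPS 1, LPS 3, loading plus rHDL 2 or loading plus rHDL 3 (adjusted p = 0.104 to 0.167).

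In the chemokine lists, the genes that edgeR called in the main fit were higher. Among 9 CC chemokines 2 rose and 0 fell. Ccl22, a ligand of CCR4 made by activated macrophages and dendritic cells, rose 2.38-fold from 247, 309 and 294 CPM to 625, 722 and 678 CPM (log2 1.25 ± 0.12, adjusted p = 2.05e-05). Ccl9 was at 0.28 ± 0.07 (adjusted p = 0.031), a call lost without LPS 1, LPS 2, LPS 3, loading plus rHDL 1 or loading plus rHDL 2 (adjusted p = 0.0744 to 0.128). Ccl22 also rose with loading alone, by 1.36 ± 0.12, and with rHDL alone, by 1.10 ± 0.11, so the net value is close to each single value and not to their sum. Cx3cl1, the membrane-bound chemokine fractalkine, rose from 11.8, 11.0 and 11.7 CPM to 25.4, 22.3 and 25.0 CPM (log2 1.08 ± 0.11, adjusted p = 3.3e-05). The treated libraries of Ccl22 and Cx3cl1 were all well above the LPS libraries. Ccl2, which attracts monocytes, was at 0.22 ± 0.15 (adjusted p = 0.53), and Ccl5 at 0.01 ± 0.12 (0.969).

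Of 8 neutrophil-attracting and platelet CXC chemokines 1 was called, Cxcl3, at 0.57 ± 0.14 (adjusted p = 0.0355), and this call was lost without LPS 1, LPS 3, loading plus rHDL 1 or loading plus rHDL 2 (adjusted p = 0.0818 to 0.158). At an unadjusted p under 0.05, 3 of the 8 were higher and 2 lower. Cxcl1 was 321, 434 and 337 CPM with LPS alone and 269, 317 and 279 CPM with loading plus rHDL, without overlap. Its log2 fold change was -0.34 ± 0.14 and was not called in the main edgeR fit (adjusted p = 0.251). With the replicate block 2 of the 8 were called higher and 1, Cxcl1, lower (adjusted p = 0.00333). Cxcl2 was at -0.22 ± 0.10 (adjusted p = 0.284). With rHDL alone Cxcl1 rose by 2.63 ± 0.15, Cxcl2 by 2.21 ± 0.10 and Cxcl3 by 1.92 ± 0.14. Of 5 interferon-dependent chemokines 0 were called by edgeR or DESeq2 and 2 were higher at an unadjusted p under 0.05; Cxcl10 was at -0.09 ± 0.23 with an interval of -0.59 to 0.40.

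Among 12 chemokine and chemotactic receptors Cxcr4 alone was called. Cxcr4, the receptor of CXCL12, was low and fell 3.17-fold, from 7.66, 9.08 and 9.05 CPM to 2.16, 3.01 and 2.98 CPM (log2 -1.66 ± 0.19, adjusted p = 0.000123). Ccr2 was at -0.32 ± 0.19 (adjusted p = 0.432), whereas with rHDL alone the value was -2.85. P2ry13, a purine receptor named after its values were seen, was at 1.06 ± 0.26 (adjusted p = 0.0429), lost without LPS 1, LPS 2, LPS 3, loading plus rHDL 1 or loading plus rHDL 3 (adjusted p = 0.0572 to 0.174).

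**Figure D4:**
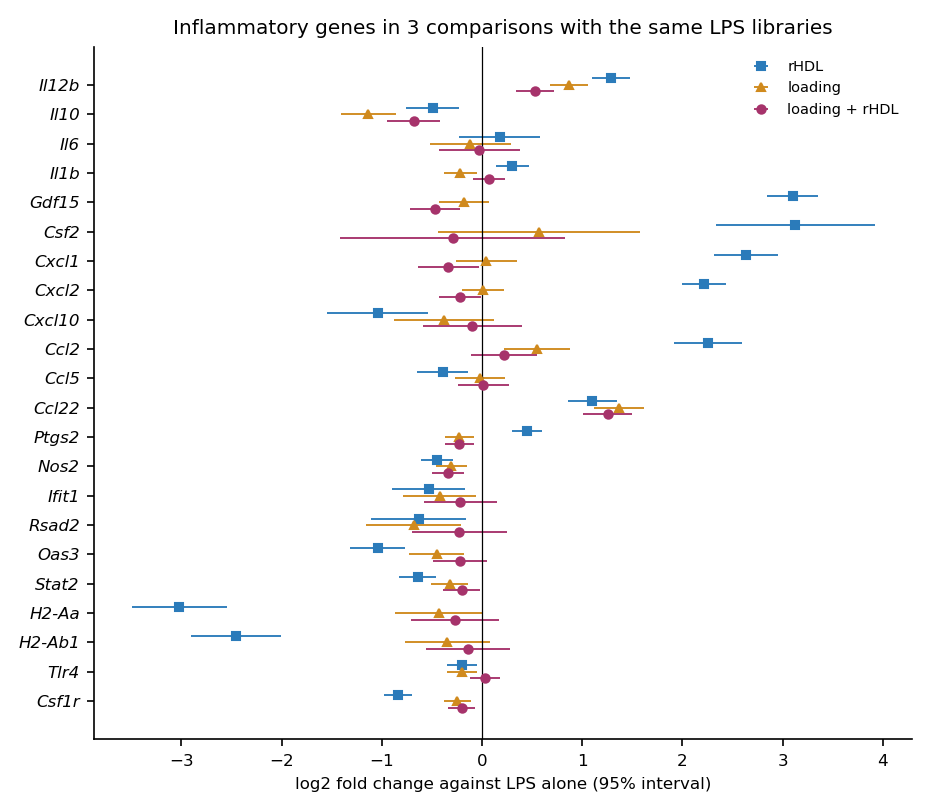
Log2 fold change against LPS alone with 95% intervals for 22 genes of inflammation, interferon response and antigen presentation, for loading plus rHDL, loading alone and rHDL alone. For loading plus rHDL the intervals of Il6, Il1b, Cxcl10 and H2-Aa cross 0, and those of Il12b and Ccl22 lie above it.

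In the lists of interferon response, GBP and IRG GTPases and MHC genes edgeR called 0 genes. Of 30 tested interferon response genes, edgeR and DESeq2 called 0, while 25 of the 30 had a negative log2 fold change, with a median of -0.12. At an unadjusted p under 0.05, 3 were lower and 0 higher, and with the replicate block 6 were called lower. With rHDL alone 29 of these 30 fell, with a median of -0.72, and loading plus rHDL was above rHDL alone in 23. Oas3, an antiviral nucleotide synthetase, was 1256, 981 and 1155 CPM with LPS alone and 952, 850.3 and 1112 CPM with loading plus rHDL (log2 -0.22 ± 0.13, interval -0.49 to 0.05). Rsad2, the antiviral viperin, was 15587, 9502 and 12895 CPM and 13102, 7159 and 12221 CPM (log2 -0.23 ± 0.22, interval -0.70 to 0.25). In both groups the second library was the lowest for Rsad2, and the groups overlapped for both genes. Among 13 GBP and IRG GTPases, which attack intracellular pathogens, edgeR and DESeq2 called 0, with 3 at an unadjusted p under 0.05 and 2 called lower with the replicate block. Gbp5 was at -0.08 ± 0.09 (interval -0.28 to 0.12). Outside these lists and named after its values were seen, Ifi27l2a, an interferon-inducible gene, fell from 45.1, 36.8 and 42.3 CPM to 20.3, 15.4 and 18.7 CPM (log2 -1.19 ± 0.12, adjusted p = 5.93e-05; 60.5% of its exon bases counted).

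Of 6 MHC class II genes 0 were called by edgeR or DESeq2 and 0 had an unadjusted p under 0.05. H2-Aa, an MHC class II chain, was 987, 765 and 879.8 CPM with LPS alone and 842, 617 and 730.2 CPM with loading plus rHDL, a difference of -0.27 ± 0.20 with an interval of -0.70 to 0.17. The groups overlapped. With rHDL alone all 6 fell, H2-Aa with a log2 fold change of -3.02, and loading plus rHDL was above rHDL alone in all 6. Of 11 MHC class I genes, 17 NF-kB genes, 16 Toll-like receptor genes and 9 complement genes, edgeR called 0, with 0, 1, 4 and 3 at an unadjusted p under 0.05 and 0 called by DESeq2. Tlr4, the LPS receptor, was 196, 195 and 185 CPM and 175, 204 and 209 CPM (log2 0.03 ± 0.07, interval -0.12 to 0.18). Of 11 inflammasome genes edgeR called 0, with 2 higher at an unadjusted p under 0.05 and 1 higher by DESeq2; Nlrp3, a sensor, was at 0.16 ± 0.06 (interval 0.03 to 0.29). Of 13 macrophage identity genes edgeR called 0 and DESeq2 called 1 lower, with 4 at an unadjusted p under 0.05. Csf1r, the receptor of the growth factor CSF1, was 2021, 1920.1 and 1919 CPM and 1683, 1655 and 1752 CPM (log2 -0.20 ± 0.06, adjusted p = 0.117).

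Effector enzymes gave 3 falls and 0 rises among 13 by edgeR, and 4 and 0 by DESeq2. Arg2, the mitochondrial arginase, fell from 12.7, 12.7 and 12.5 CPM to 7.52, 7.39 and 6.39 CPM (log2 -0.83 ± 0.11, adjusted p = 0.000376). Its LPS libraries were tightly grouped and every treated library was under them. Nos2, the inducible nitric oxide synthase, was at -0.34 ± 0.07 (adjusted p = 0.0186), a call lost without LPS 1 or loading plus rHDL 1 (adjusted p = 0.0504 to 0.0952). Alox5, the leukotriene-forming lipoxygenase, was at a low level, with 4.36, 1.73 and 2.07 CPM and 0.951, 0.486 and 0.937 CPM, and its call (adjusted p = 0.0266) was lost without LPS 1, loading plus rHDL 1, loading plus rHDL 2 or loading plus rHDL 3 (adjusted p = 0.0513 to 0.117). Ptgs2, the inducible cyclooxygenase, was 10200.4, 10995 and 9969 CPM and 8704, 9035 and 8918 CPM, without overlap (log2 -0.23 ± 0.07). It was not called by edgeR (adjusted p = 0.101) and was called lower by DESeq2 (adjusted p = 0.0173) and with the replicate block (0.00831).

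Among 12 costimulation and checkpoint genes, Vcam1, an adhesion molecule, rose from 251, 249 and 270.4 CPM to 445, 392 and 422 CPM (log2 0.71 ± 0.10, adjusted p = 0.00084). Icosl, the ligand of ICOS, rose from 77.3, 85.1 and 77.6 CPM to 114, 113 and 131 CPM (log2 0.58 ± 0.10, adjusted p = 0.00372). Both genes were apart between the groups, and both rose with loading alone, by 0.57 and 0.62 on the log2 scale. Slamf7 was at -0.31 ± 0.08 (adjusted p = 0.0424), a call lost without LPS 1, LPS 2, LPS 3, loading plus rHDL 1 or loading plus rHDL 2 (adjusted p = 0.055 to 0.182). Cd274, which encodes PD-L1, was at -0.24 ± 0.07 (adjusted p = 0.106).

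Genes of the unfolded protein response were lower than with loading alone. Of its 16 tested genes of 20, edgeR called 0 against LPS alone (3 at an unadjusted p under 0.05, 1 higher by DESeq2), with a median of 0.08. With loading alone 11 of the 16 rose, with a median of 0.45, and loading plus rHDL was lower than loading alone in 10 of the 16, against 1.02% of all genes called in that comparison. Sdf2l1, an endoplasmic reticulum chaperone partner, was 21.8, 21.9 and 24.0 CPM with LPS alone, 41.0, 42.3 and 40.2 CPM with loading alone and 28.0, 23.8 and 23.3 CPM with loading plus rHDL. Its difference from loading alone was -0.72 ± 0.09 (adjusted p = 0.00116), and 2 of the 3 treated libraries lay within the LPS range. Dnajb9, a co-chaperone, differed from loading alone by -0.79 ± 0.10 (adjusted p = 0.00167), Manf by -0.45 ± 0.07 (0.00504) and Calr, calreticulin, by -0.45 ± 0.06 (0.00285). These 4 calls held whichever library was left out, and that of Pdia6 (-0.40 ± 0.07) was lost without loading 1 or loading 2 (adjusted p = 0.063 to 0.0751). Sdf2l1, Manf and Calr were named after their values were seen, and the other called members were not checked in this way. With rHDL alone 11 of the 16 rose, so loading and rHDL each raised members of the list and the combination raised none that passed the test.

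In the list of cytosolic heat shock genes 2 of 12 fell, the HSP70 genes whose promoters are printed above. Hspa1a went from 48.4, 73.6 and 78.1 CPM to 19.1, 15.2 and 18.6 CPM (log2 -1.92 ± 0.17, adjusted p = 1.86e-05). Hspa1b went from 43.6, 65.0 and 71.4 CPM to 23.9, 16.9 and 18.8 CPM (log2 -1.59 ± 0.18, adjusted p = 0.000117). LPS 1 was the lowest library of its group for both and still lay above every treated library. Loading alone was at -0.05 ± 0.16 for Hspa1a and rHDL alone at -3.82 ± 0.20. The other 10 members, among them Hsph1 at -0.22 ± 0.11 and Hspe1 at 0.21 ± 0.10, did not pass the test.

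Of 18 NRF2 antioxidant genes 2 fell. Hmox1, heme oxygenase 1, fell from 647, 725 and 712 CPM to 454, 549.6 and 419.9 CPM (log2 -0.55 ± 0.09, adjusted p = 0.00329), and it was at -0.09 ± 0.09 with loading alone and 0.07 ± 0.09 with rHDL alone. Tkt, transketolase, was at -0.26 ± 0.06 (adjusted p = 0.0242), a call lost without LPS 2, LPS 3, loading plus rHDL 2 or loading plus rHDL 3 (adjusted p = 0.0607 to 0.121). Among 12 iron genes Hmox1 and Fth1, the ferritin heavy chain, were lower, Fth1 at -0.50 ± 0.10 (adjusted p = 0.0128; 37.7% of its exon bases counted), with the call lost without LPS 1 (adjusted p = 0.0632). Of 14 ATF4 stress genes edgeR and DESeq2 called 0, with 2 at an unadjusted p under 0.05. Against loading alone 3 of the 14 were called higher with loading plus rHDL, and 0 lower. They were Trib3, a pseudokinase (0.54 ± 0.10, adjusted p = 0.0198), Chac1, a glutathione-degrading enzyme (0.58 ± 0.11, 0.0245), and Slc7a5, an amino acid transporter (0.43 ± 0.10, 0.0498), the last of which was named with Chac1 after its values were seen. The call was lost for Trib3 without loading 1, loading 2, loading 3 or loading plus rHDL 3 (adjusted p = 0.0759 to 0.105), for Chac1 without loading 1, loading 2, loading 3, loading plus rHDL 1 or loading plus rHDL 2 (adjusted p = 0.0531 to 0.146) and for Slc7a5 without loading 1, loading 2, loading 3, loading plus rHDL 2 or loading plus rHDL 3 (adjusted p = 0.124 to 0.225).

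In glycolysis and hypoxia 3 of 17 genes fell and 0 rose. Hk2, hexokinase 2, fell from 557, 551 and 513 CPM to 359, 389 and 371 CPM (log2 -0.54 ± 0.06, adjusted p = 0.000219), with no overlap, and was at -0.62 ± 0.06 with loading alone. Hif1a, the hypoxia-inducible factor, was at -0.28 ± 0.07 (adjusted p = 0.044), lost without LPS 1, LPS 2, LPS 3, loading plus rHDL 1 or loading plus rHDL 3 (adjusted p = 0.0982 to 0.156). Pkm, pyruvate kinase, was at -0.35 ± 0.08 (adjusted p = 0.0355; 12.9% of its exon bases counted), lost without LPS 1, LPS 2, loading plus rHDL 1 or loading plus rHDL 3 (adjusted p = 0.0921 to 0.147). Of 21 oxidative phosphorylation genes edgeR and DESeq2 called 0, with 2 at an unadjusted p under 0.05, and 20 of the 21 had a positive log2 fold change, with a median of 0.12. Of 18 cell cycle genes edgeR called 0 and DESeq2 called 1 lower, with 5 at an unadjusted p under 0.05.

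Lists of organelles and signalling had 1 to 4 calls each. Of 21 lysosome genes Gusb was called, at 0.23 ± 0.06 (adjusted p = 0.0356), lost without LPS 1, LPS 2, LPS 3, loading plus rHDL 1 or loading plus rHDL 2 (adjusted p = 0.0639 to 0.142). Of 13 autophagy genes Tax1bp1, an autophagy receptor, was called, at -0.32 ± 0.07 (adjusted p = 0.0182), lost without LPS 1, LPS 2, LPS 3 or loading plus rHDL 3 (adjusted p = 0.0589 to 0.0753). Of 9 protein kinase C genes Prkcd was called, at 0.24 ± 0.06 (adjusted p = 0.0445), lost without LPS 1, LPS 2, LPS 3, loading plus rHDL 2 or loading plus rHDL 3 (adjusted p = 0.0746 to 0.179). Of 18 immediate early factors Ier2 rose by 0.56 ± 0.09 (adjusted p = 0.00194), and Dusp5, a MAP kinase phosphatase, fell from 8.83, 9.54 and 9.59 CPM to 4.15, 5.84 and 5.54 CPM (log2 -0.85 ± 0.15, adjusted p = 0.00576). Jun, an AP-1 subunit, was at -0.46 ± 0.09 (adjusted p = 0.00979), lost without LPS 3 (adjusted p = 0.0578). Of 21 actin and adhesion genes 2 rose and 2 fell: Thbs1, thrombospondin 1, at 0.43 ± 0.08, Actg1, cytoplasmic gamma actin, at 0.28 ± 0.06, and the matrix proteases Mmp12 at -0.69 ± 0.14 and Mmp8 at -1.13 ± 0.22. These calls were lost without LPS 3 (adjusted p = 0.0617) for Thbs1, without LPS 1, LPS 2, LPS 3 or loading plus rHDL 1 (adjusted p = 0.0595 to 0.14) for Actg1, without LPS 2 (adjusted p = 0.0559) for Mmp12 and without LPS 2 (adjusted p = 0.0642) for Mmp8.

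Some genes differed both from LPS alone and from loading alone. Those described here were chosen after their values were seen, and of them only Arl4c was also called between loading alone and LPS alone (log2 0.37 ± 0.09, adjusted p = 0.0202). Cxcr4 was at -0.15 ± 0.16 with loading alone and 0.12 ± 0.15 with rHDL alone, and loading plus rHDL was -1.52 ± 0.19 against loading alone (adjusted p = 0.00116). Zfp36l2, an RNA-binding protein that promotes mRNA decay, fell from 59.4, 63.6 and 63.7 CPM to 31.5, 36.5 and 35.5 CPM (log2 -0.85 ± 0.08, adjusted p = 2.05e-05), with 55.2, 55.1 and 59.9 CPM in loading alone and 60.0, 66.0 and 68.5 CPM in rHDL alone. Its difference from loading alone was -0.72 ± 0.08 (adjusted p = 0.000339). For both genes the 3 treated libraries were the lowest of all 12. Hspa1a was -1.87 ± 0.17 against loading alone (adjusted p = 0.000103). The calls of Cxcr4, Zfp36l2, Hspa1a, Scd2 and Arl4c against loading alone held whichever library was left out.

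Hbegf, a growth factor of the EGF family, fell from 12.1, 14.6 and 13.4 CPM to 6.22, 4.86 and 5.03 CPM (log2 -1.32 ± 0.16, adjusted p = 0.000314), and was -0.85 ± 0.17 against loading alone (adjusted p = 0.0248), lost without loading 2, loading 3, loading plus rHDL 2 or loading plus rHDL 3 (adjusted p = 0.0793 to 0.143). Hmox1 was -0.46 ± 0.09 against loading alone (adjusted p = 0.0245), lost without loading 1, loading 2, loading 3, loading plus rHDL 1 or loading plus rHDL 3 (adjusted p = 0.0531 to 0.14). Shmt1, a folate enzyme of low level, fell from 3.41, 3.63 and 4.14 CPM to 0.951, 1.36 and 1.53 CPM (log2 -1.53 ± 0.25, adjusted p = 0.00329), and its difference from loading alone, -1.24 ± 0.26, was lost without loading 1, loading 2, loading plus rHDL 1, loading plus rHDL 2 or loading plus rHDL 3 (adjusted p = 0.0703 to 0.15). Fcgrt, the neonatal Fc receptor, rose from 38.4, 42.9 and 40.0 CPM to 81.6, 79.6 and 66.4 CPM (log2 0.91 ± 0.11, adjusted p = 0.00017), and its difference from loading alone, 0.56 ± 0.10, was lost without loading 1, loading 2, loading 3 or loading plus rHDL 2 (adjusted p = 0.0557 to 0.105). For these 4 genes the groups with and without the treatment were apart in the net comparison, so what depended on single libraries was the step from loading alone.

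**Figure D5:**
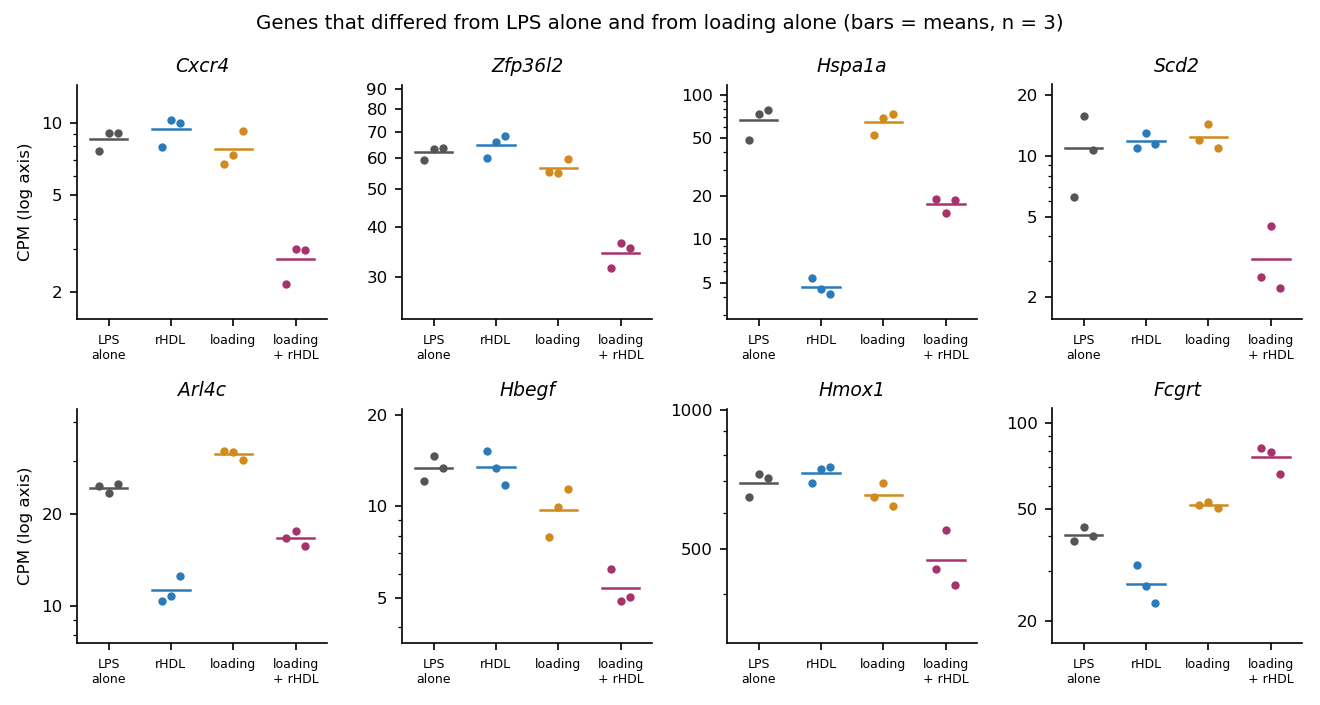
CPM per library on a log axis for 8 genes in the 4 LPS-treated groups, with points for the 3 libraries and a bar for the group mean. Loading plus rHDL lies under both LPS alone and loading alone for Cxcr4, Zfp36l2, Hspa1a, Scd2, Arl4c, Hbegf and Hmox1, and above both for Fcgrt.

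Called genes without overlap between the groups that averaged at least 3 log2 CPM were ranked by log2 fold change. Predicted genes and clones were left out of the ranking. The 12 largest rises were Abcg1, Mylip, Ccl22, Abca1, Cx3cl1, Lad1, Col4a1, Fscn1, Nxpe3, Scimp, Fcgrt and Col4a2. Fscn1, the actin-bundling fascin, rose from 152, 117 and 132 CPM to 267, 237 and 275 CPM (log2 0.96 ± 0.12, adjusted p = 0.000252). Lad1 rose from 34.5, 30.1 and 32.7 CPM to 61.5, 62.6 and 67.3 CPM (log2 0.98 ± 0.12, adjusted p = 0.000279). Scimp, an adaptor of Toll-like receptor signalling, rose by 0.93 ± 0.17 (adjusted p = 0.00596), and Nxpe3 by 0.93 ± 0.13 (0.000618). All 4 were apart from the LPS libraries, as the ranking required. The collagen IV genes Col4a1 (0.96 ± 0.22, adjusted p = 0.0243) and Col4a2 (0.83 ± 0.20, adjusted p = 0.0377) were called together, but both calls were lost without LPS 2, LPS 3, loading plus rHDL 1 or loading plus rHDL 3 (adjusted p = 0.0581 to 0.105) for Col4a1 and without LPS 2, LPS 3, loading plus rHDL 1 or loading plus rHDL 3 (adjusted p = 0.0616 to 0.142) for Col4a2. Some further rises, named after their values were seen, were more even: Ucp2, a mitochondrial carrier, from 285, 267 and 278 CPM to 404, 442 and 429 CPM (log2 0.62 ± 0.07, adjusted p = 6.67e-05), and Abhd12, a lysophosphatidylserine lipase, from 194, 176 and 191 CPM to 282, 281 and 277 CPM (log2 0.58 ± 0.06, adjusted p = 4.11e-05).

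Among the 12 largest falls were Lipg, Cyp51, Stard4, Sc5d, Hspa1a, Idi1, Fdft1, Selp, Hspa1b, Insig1 and Sqle, and most of these belong to the lists of cholesterol synthesis and SREBP2 regulators. Lipg, endothelial lipase, which hydrolyses HDL phospholipids, fell 4.3-fold, from 773, 458 and 668 CPM to 174, 99.9 and 167 CPM (log2 -2.10 ± 0.26, adjusted p = 0.000291). LPS 2 was the lowest of its group and the second treated library the lowest of the other, without overlap. Lipg was at -2.72 with loading alone and at -1.92 with rHDL alone. Selp, P-selectin, fell from 33.3, 24.4 and 26.9 CPM to 8.12, 10.1 and 7.84 CPM (log2 -1.70 ± 0.17, adjusted p = 3.3e-05), and was at -4.27 with rHDL alone. Other falls, named after their values were seen, were Osmr, the oncostatin M receptor, from 44.0, 32.2 and 39.0 CPM to 17.5, 17.5 and 21.5 CPM (log2 -1.02 ± 0.16, adjusted p = 0.00257), and Tnc, tenascin C, from 58.3, 58.6 and 45.5 CPM to 24.0, 29.3 and 28.3 CPM (95% interval of the log2 fold change -1.27 to -0.72, adjusted p = 0.000472). Il7r, the IL-7 receptor chain, fell from 84.7, 104 and 91.0 CPM to 49.7, 58.1 and 57.1 CPM (log2 -0.77 ± 0.11, adjusted p = 0.00068). The adhesion molecule L1cam was at -0.98 ± 0.12 (adjusted p = 0.000264), the carbonyl reductase Cbr2 at -1.16 ± 0.16 (0.000702) and the Fc receptor-like gene Fcrls at -0.70 ± 0.12 (0.00395).

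Genes that respond to LPS were taken from the other count table of the series, in which untreated cells were compared with LPS. Of 1538 genes that rose there at least 2-fold, 1497 were tested here, and 52 were higher and 53 lower with loading plus rHDL (7.01% called, against 3.32% of all genes). Their median was -0.03, beside -0.13 with loading alone and -0.30 with rHDL alone. These counts also depended on single libraries: they were 25 and 35 without LPS 3, and 40 and 31 without LPS 1. Of 1840 genes that LPS lowered at least 2-fold, 1373 were tested, and 13 were higher and 25 lower, with a median of 0.03. That is 2.77% called, under the 3.32% of all genes. Called LPS-induced genes were thus split between rises such as Il12b and Ccl22 and falls such as Il10 and Lipg.

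Markers specific to other cells were at low summed levels. Genes that share exon bases with other transcripts are counted in part or not at all. A 0 given below therefore does not show that a marker was absent. Of 9 neutrophil markers 1 was tested and lower, S100a8 (-1.05 ± 0.21, adjusted p = 0.0123; the call lost without LPS 3 (adjusted p = 0.0519)), and the list summed to 7.45 to 8.41 CPM with LPS alone and 3.15 to 5.74 CPM with loading plus rHDL, with S100a9 and Mpo at 0. Mmp8, also made by neutrophils, moved with it, and the part of neutrophil RNA in these values was not tested. Of 8 stromal markers 3 were tested and Vwf, von Willebrand factor, was lower, from 54.7, 56.1 and 56.7 CPM to 33.0, 33.4 and 41.4 CPM (log2 -0.63 ± 0.12, adjusted p = 0.0102). The stromal list summed to 57.7 to 59.6 CPM and 34.5 to 42.8 CPM, nearly all of it Vwf, with Dcn, Pdgfrb and Pecam1 at 0. The 8 dendritic markers summed to 2.98 to 3.27 CPM and 2.04 to 3.79 CPM, the 10 lymphoid markers to 3.30 to 4.69 CPM and 2.82 to 3.92 CPM, and the 7 mast, erythroid and megakaryocyte markers to 0.182 to 0.426 CPM and 0.0973 to 0.519 CPM. Of these, 2, 1 and 0 genes were tested, and edgeR called 0. Longer lists that add genes which macrophages also express summed higher. The 10 dendritic genes of such a list, with Bst2, summed to 476.9 to 535 CPM and 442 to 608 CPM. The 9 mast, erythroid and megakaryocyte genes, with Pf4 and Ppbp, summed to 54.5 to 61.4 CPM and 61.4 to 102 CPM. Of the 4 and 2 genes of these that were tested edgeR and DESeq2 called 0, with 1 of the latter at an unadjusted p under 0.05, Pf4 (0.50 ± 0.16, adjusted p = 0.117). Of 10 control genes, such as Tbp (-0.14 ± 0.12) and Hprt (0.16 ± 0.10), edgeR and DESeq2 called 0 and 0 had an unadjusted p under 0.05.

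Whether the combination equals the sum of its parts was tested as an interaction in the same fit. It departed from the sum in 1432 genes above and 1272 below (30.2% called). Abcg1 shows the form of it: the sum of 2.58 and -2.62 is near 0, and the net value was 1.91, a departure of 1.94 ± 0.11. Abca1 departed by 2.77 ± 0.16, with 1.53 for loading alone, -3.21 for rHDL alone and 1.09 for both.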

How the data were processed

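RNA-seq counts of 12 libraries in 4 groups of 3 were used. Per the submitters' processing notes, the authors used cutadapt, HISAT2, featureCounts of Subread, DESeq2 and mm10, with versions not given in the sources used here. Raw read counts for 32850 rows and 24059 symbols stand in the deposited tables. The 6696 rows that share every exon base with another row had 0 counts, so genes that overlap others are measured in part or not at all.

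Rows were summed per symbol. edgeR 4.0.16 (R 4.3.3) fitted all 12 libraries, with TMM scaling, filterByExpr (minimum count 10), quasi-likelihood tests and Benjamini-Hochberg adjustment over 8965 genes. CPM are counts relative to the TMM-scaled library total. Log2 fold changes are given ± their standard error, and n = 3 libraries per group. Library totals were 9464916 to 15607889 counts, and the number of libraries limits the precision. Replicates of a group differed by more than sampling noise. The deposited tables of the authors' own comparisons were not used. Older symbols in the table (Irg1 for Acod1, Emr1 for Adgre1, Agpat9 for Gpat3, Agpat6 for Gpat4) were matched. The models were tested on simulated data.

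Named genes were the 12 largest rises and falls among called, non-overlapping genes that averaged at least 3 log2 CPM, the (at most 4) lowest p of every list, a panel of lipid and inflammatory genes and 8 genes by departure from additivity, and the text prints a part of these; some genes are not reported here. Predicted genes and clones were passed over when the largest rises, the largest falls and the additivity genes were ranked. Other genes named were picked after their values were seen. The comparison and the 41 lists were chosen with earlier results of these data known. Alternatives were DESeq2 1.42.0, 2 other scalings, 2 other filters, the 6 libraries alone, a replicate block, a minimum of 1.5-fold (glmTreat), genes with 1 row and leaving out each library. Leaving out libraries for the difference from loading alone was added after seeing the data. Promoter motifs were counted in RefSeq windows of GRCm38.p6.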

Additional observations from a re-analysis of the deposited data

Results flagged for a closer look

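Genes averaging at least 3 log2 CPM were ranked by p of edgeR's interaction test, with predicted genes and clones passed over. In the 8 with the smallest p, the value with loading plus rHDL departed from the sum of those with loading alone and rHDL alone. Those 3 comparisons share the LPS libraries. Gdf15, a stress cytokine, departed by -3.39 ± 0.16 on the log2 scale (adjusted p = 5.48e-08). Cxcl2, a neutrophil-attracting chemokine, departed by -2.44 ± 0.14 (adjusted p = 1.71e-07). Both rose with rHDL alone, by 3.10 and 2.21, and were at -0.47 and -0.22 with loading plus rHDL.

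The other 6 lay above the sum. The exporters Abca1 and Abcg1 departed by 2.77 ± 0.16 and 1.94 ± 0.11 (adjusted p = 1.71e-07 and 1.33e-07). Tgfbi, a matrix protein induced by TGF-beta, departed by 3.06 ± 0.20 (adjusted p = 3.94e-07) and Mmp13, a collagenase, by 2.03 ± 0.12 (adjusted p = 1.71e-07). Dgka, a diacylglycerol kinase, departed by 1.72 ± 0.11 (adjusted p = 3.94e-07) and Gda, guanine deaminase, by 1.71 ± 0.11 (adjusted p = 3.94e-07). Tgfbi had 307, 258 and 303 CPM with LPS alone, 40.0, 28.5 and 31.5 CPM with rHDL alone and 241, 217 and 244 CPM with loading plus rHDL, and its net value of -0.30 ± 0.13 did not pass the test (adjusted p = 0.276). The net value of Gda, -0.35 ± 0.08 (adjusted p = 0.0219), did, and was lost without LPS 1, LPS 3, loading plus rHDL 1 or loading plus rHDL 2 (adjusted p = 0.054 to 0.116).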

How the results depend on the processing

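Against 127 higher and 171 lower genes with loading plus rHDL, the 6 libraries fitted alone gave 59 and 88, and a minimum of 1.5-fold gave 7 and 21. With the replicate number as a block the counts were 330 and 463, and the 298 genes were all kept. Deviations of LPS and loading plus rHDL libraries with the same number correlated at 0.16, 0.34 and -0.02, and LPS 3 matched number 1 best. The groups with only loading or only rHDL were not part of that check. The main fit did not pair libraries by number, and some genes not called in it were called with the block. Cxcl10 and Apoe were lowest in replicate 2 of all 4 groups. In all 4 groups the TMM scaling factor was largest in replicate 2 and smallest in replicate 1, such as 0.992 and 0.934 with LPS alone. Whether replicate number marks a shared effect was not tested. Leaving out 1 library gave 60 to 113 higher and 94 to 182 lower genes. Scaling by DESeq2's size factors (121 and 181) or library totals (155 and 141), other filters (175 and 242, 129 and 173), genes with 1 row (126 and 161) and DESeq2 (150 and 235) stayed within 1.5 times. No called named gene changed direction, and 61 of 87 kept their call under every alternative but the 1.5-fold minimum. Genes with few counts, such as Fads2 and Alox5, and genes with wide spread among libraries, such as Il6 and Rsad2, are those for which moderate differences could not be detected.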
